A study of Mus musculus with 8 samples.

Results

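The 34 genes described here encode the stress sensors, chaperones, disulfide isomerases, degradation factors and protein channel of the endoplasmic reticulum (ER), the compartment in which secreted and membrane proteins are folded. They were taken by symbol from a written list, and all 34 were found among the 23366 gene symbols of 8 tables of read counts. All 34 passed the filter on low counts that left 20427 genes for testing. By role they are 11 chaperones and their co-factors, 4 disulfide isomerases, 5 genes of the sensor group, 4 of the branch below the sensor kinase PERK, 7 of ER-associated degradation and 3 of the translocon.

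The libraries come from intestinal epithelium of male littermate mice aged 6 weeks. Control mice carried Sox4 alleles flanked by loxP sites (Sox4floxed/floxed), and Sox4cKO mice carried the same alleles with villinCre, a Cre recombinase under the villin promoter that deletes Sox4, a transcription factor gene, throughout the gut epithelium from embryonic life. Cells positive for CD326, an epithelial surface protein, were sorted into a CD44-negative gate enriched for villus (CD44minus) and a CD44-positive gate enriched for crypt (CD44plus), 50000 cells being sorted for each. The 4 groups hold 2 libraries apiece, 1 per animal. The gates of a genotype were sorted from the same 2 animals, so comparisons that involve both gates share animals, and the comparisons share libraries with each other.

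When unfolded proteins build up in the ER, 3 sensors in its membrane respond. IRE1 (gene Ern1, with the gut form Ern2) splices the messenger of the transcription factor Xbp1. ATF6 is cut in the Golgi apparatus to release a transcription factor, and PERK (Eif2ak3) slows translation while favouring that of Atf4, which drives Ddit3 (CHOP), Trib3 and Chac1. The first pair of arms raises chaperone, isomerase and degradation genes. In the gut, goblet and Paneth cells carry a heavy secretory load, and enterocytes use the ER to assemble lipoproteins. Counts per gene do not show splicing, cleavage or translation, so sensor activity was not measured.

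Chaperone promoters are the classic place where the ATF6 arm acts, through the ER stress response element (ERSE), spelled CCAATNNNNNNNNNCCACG with 9 free bases. RefSeq promoter windows of 300 bases on GRCm38.p6, which reach 50 bases past the gene start, were at hand for 28 of the 34 genes. On either strand the element was found in 9 of the 28 (32.1%), against 39 of all 32851 windows (0.119%). A shorter form, ERSE-II (ATTGGNCCACG), lay in 2 of the 28 (Dnajb11 and Herpud1, 7.14%) and in 12 of all windows (0.0365%). The XBP1-type element TGACGTGG (in 0.676% of all windows) and the ATF4-type element TGATGNAAT (in 0.965%) were in none of the 28. The ERSE windows are shown because they hold the sequence shared by 6 genes of the chaperone group, an isomerase and a pair of degradation genes, and Herpud1 is shown for ERSE-II. Capitals mark each match, and the sequences read in the direction of the gene.
Hspa5 (chr2:34772020-34772048, plus strand): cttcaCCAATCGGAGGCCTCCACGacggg
Hsp90b1 (chr10:86705518-86705671, minus strand): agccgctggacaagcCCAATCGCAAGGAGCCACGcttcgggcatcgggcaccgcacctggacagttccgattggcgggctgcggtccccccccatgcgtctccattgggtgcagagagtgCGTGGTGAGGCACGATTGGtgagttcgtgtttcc
Calr (chr8:84847060-84847108, minus strand): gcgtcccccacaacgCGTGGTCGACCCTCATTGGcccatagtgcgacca
Canx (chr11:50325785-50325833, minus strand): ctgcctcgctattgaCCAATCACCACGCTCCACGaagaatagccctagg
Dnajc3 (chr14:118937812-118937860, plus strand): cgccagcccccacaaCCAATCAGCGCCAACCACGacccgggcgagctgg
Creld2 (chr15:88819505-88819553, plus strand): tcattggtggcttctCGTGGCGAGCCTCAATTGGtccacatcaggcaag
Pdia6 (chr12:17266476-17266524, plus strand): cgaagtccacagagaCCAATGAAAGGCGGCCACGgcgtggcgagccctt
Syvn1 (chr19:6046517-6046565, plus strand): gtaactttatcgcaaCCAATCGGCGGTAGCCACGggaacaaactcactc
Derl3 (chr10:75893227-75893275, plus strand): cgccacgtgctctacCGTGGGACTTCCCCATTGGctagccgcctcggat
Herpud1 (chr8:94386362-94386402, plus strand): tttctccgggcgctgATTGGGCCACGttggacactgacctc
Hsp90b1 holds the element in both orientations, and Calr, Creld2 and Derl3 hold it in reverse. The first base of the match lay 44 (Syvn1) to 212 (Hsp90b1) bases before the RefSeq start among the genes printed. All printed stretches lie before the gene start in both annotations except that of Hspa5, which GENCODE places in the first exon (5′ UTR) of a longer transcript. A match describes letters only and is not a measured binding site.

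Depth and cell content differed between libraries and bear on every comparison that uses the CD44minus gate. Gene counts were 886194 to 6963345 in the 4 CD44minus and 6007554 to 13238050 in the 4 CD44plus libraries. The share of uniquely placed reads assigned to no gene ran from 64.64 to 79.28% across CD44plus. Sox4cKO CD44minus replicate 2, at 76.85%, fell inside that range. The remaining CD44minus libraries lay above it, at 91.99% (control replicate 2), 96.26% (control replicate 1) and 96.65% (Sox4cKO replicate 1). The gates of control mice thus differed in this share, and its part in the comparisons was not tested. CPM below are read counts relative to the library total and scaled by the trimmed mean of M values (TMM), and each pair of values gives replicate 1 and then replicate 2. Receptor genes of smell and pheromones, used as a measure of background reads, took 189 to 4196 CPM of gene counts in CD44minus and 70.2 to 366 CPM in CD44plus. Sox4 itself was at 128.5 and 120.2 CPM (1438 and 658 reads) in the control CD44plus libraries. In the Sox4cKO CD44plus libraries it was at 17.8 and 25.7 CPM (123 and 271 reads). Enterocyte markers (14 genes, none at 0 reads) summed to 13830 to 71670 CPM in CD44minus and 2505 to 3282 CPM in CD44plus, and stem cell markers (8 genes, 1 of them at 0 in 1 library) to 147 to 361 and 4362 to 5991 CPM. Sox4cKO CD44minus replicate 2 had the highest enterocyte sum and the lowest background of the 4 CD44minus libraries, and on the first principal component (68.1% of the variance) it lay among the CD44plus libraries, at 84.2, while the other CD44minus libraries lay at -185 to -104. It also stood apart on the second component (17.3%).

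Together the 34 genes made up 0.663 and 0.825% of gene counts in the control CD44minus libraries and 0.626 and 0.936% in their Sox4cKO counterparts. In CD44plus they made up 0.919 and 0.922% (control) and 1.08 and 0.947% (Sox4cKO). Their summed level was 3959 and 7546, 3645 and 17750, 10050 and 10120, and 11960 and 11880 CPM in the same order of groups. The CD44plus libraries lay close together, whereas the CD44minus libraries spread over the whole range and both their lowest and highest values came from Sox4cKO. In bulk libraries a lower share of cells and less RNA per cell cannot be told apart.

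**Figure D1:**
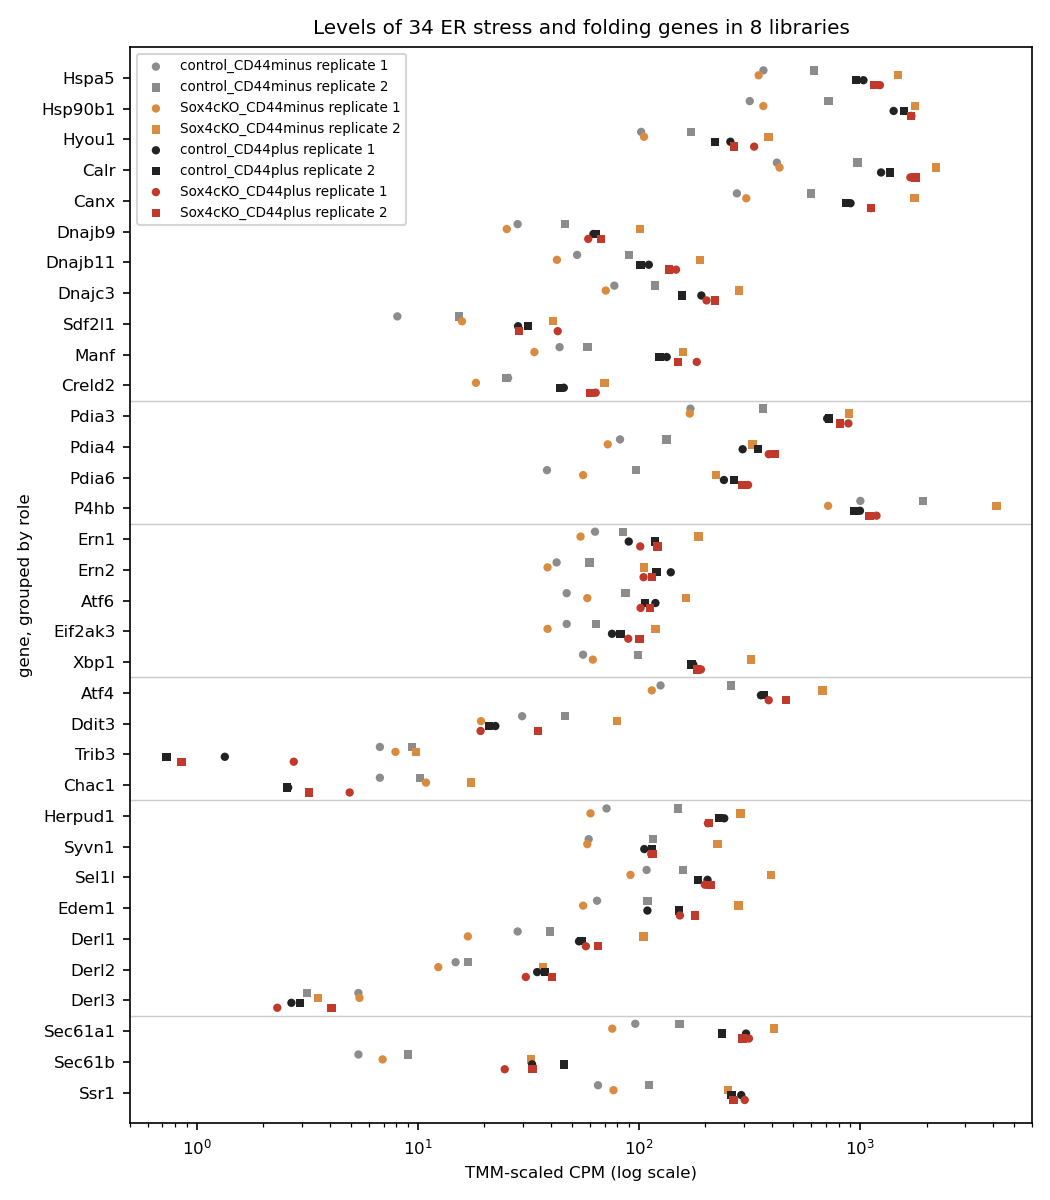
Level of each of the 34 genes in each library (x axis, TMM-scaled CPM on a log scale; y axis, genes grouped by role; circles replicate 1, squares replicate 2). The CD44plus libraries (black, red) lie near each other for most genes, while the Sox4cKO CD44minus replicates (orange) lie far apart, for Hspa5 at 348 and 1482 CPM.

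Per kilobase of exon, on mean levels in control CD44plus, the highest of the 34 was Calr at 598 CPM per kb, a lectin chaperone that holds calcium. Hsp90b1 (GRP94) followed at 531, the isomerase P4hb at 340, Hspa5 (BiP, the Hsp70 of the ER) at 266 and Pdia3 at 259 CPM per kb. In control CD44minus the order began with P4hb at 512, ahead of Calr at 320, Hsp90b1 at 184 and Hspa5 at 131 CPM per kb. The 4 lowest in control CD44plus were Trib3 (0.511), Chac1 (1.57), Derl3 (2.12) and Derl2 (8.4 CPM per kb). P4hb thus led the villus-enriched gate and came behind Calr and Hsp90b1 in the crypt-enriched gate. Trib3, Chac1, Derl3, Ddit3 and Sec61b rest on few reads in shallow libraries, with 8 to 44 reads each in control CD44minus replicate 1.

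In the crypt-enriched gate, loss of Sox4 was accompanied by slightly higher levels of most of the folding genes, none of which passed the test. The comparison asks what differs in crypt-enriched cells that lack Sox4. Of the 34 genes, 29 had a positive log2 fold change for Sox4cKO against control, with a median of 0.24 against -0.000524 over all genes tested. Both Sox4cKO libraries lay above both controls for 19 and below them for 2, where 14.2% and 16.4% of all genes did so. With edgeR's quasi-likelihood test 0 of the 34 genes passed an adjusted p of 0.05, as did 0 of all genes (0%) in either direction. At an unadjusted p under 0.05 there were 0 of the 34 and 128 of all genes. DESeq2 and limma called 0 of the 34 and 0 of all genes.

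All 11 chaperone genes had a positive value, with a median of 0.324. Hspa5, which binds unfolded chains and holds the sensors inactive, was at 1037 and 962 CPM in the controls against 1231 and 1163 CPM without Sox4 (log2 fold change 0.26, SE 1.05). Calr was at 1246 and 1367 against 1691 and 1786 CPM (0.41, SE 1.16). Its partner Canx, the membrane-bound lectin chaperone, was at 906 and 865 against 1122 and 1123 CPM (0.34, SE 1.08). For these genes the groups did not overlap, and the gap exceeded the distance between replicates. Creld2, a co-factor induced by ER stress, was at 45.8 and 44 against 63.8 and 60.4 CPM (0.47, SE 0.61), the highest log2 fold change among the chaperones. Dnajb11, a J-domain co-chaperone of Hspa5, was at 111 and 102 against 147 and 137 CPM (0.42, SE 0.74). Manf, a secreted stabiliser of Hspa5 complexes, was at 134 and 124 against 183 and 151 CPM (0.37, SE 0.74). Of the 11 chaperone genes 9 lay higher in both Sox4cKO libraries, where 14.2% of all genes did so, and Dnajb9 and Sdf2l1 overlapped. Dnajb9 (ERdj4), at 62.3 and 63.9 against 59 and 67.5 CPM, had a log2 fold change of 0.0032. Hyou1, an ER chaperone of the Hsp110 class, was at 259 and 221 against 332 and 270 CPM, and Dnajc3, another J-domain partner of Hspa5, at 192 and 156 against 202 and 221 CPM.

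The 4 disulfide isomerases, which form and reshuffle disulfide bonds, were also higher in both Sox4cKO libraries (median 0.243), as were 14.2% of all genes. Pdia3, which works with Calr and Canx, was at 711 and 726 against 886 and 812 CPM. Pdia4 was at 295 and 346 against 387 and 411 CPM. The gain was of a similar size in each of the 4, between 0.24 and 0.32 on the log2 scale.

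The sensor, degradation and translocon groups stayed nearer to 0, with medians of 0.0964, 0.0719 and 0.0431. Ern2, the IRE1 form of mucus-secreting cells, was at 139 and 120 against 105 and 115 CPM (-0.24, SE 0.66). Herpud1, a degradation scaffold at the ER membrane, was at 243 and 231 against 205 and 207 CPM (-0.20, SE 0.82). These are the 2 genes of the list that lay lower in both Sox4cKO libraries. Xbp1 was at 176 and 173 against 191 and 183 CPM, Atf6 at 119 and 107 against 102 and 112 CPM, and Ern1 at 90 and 119 against 101 and 122 CPM. Eif2ak3 (PERK) was at 75.6 and 82.6 against 89.5 and 101 CPM, and of the sensor genes only it and Xbp1 lay higher in both Sox4cKO libraries. The ubiquitin ligase Syvn1 (HRD1) was at 106 and 114 against 114 and 115 CPM. Edem1, which marks misfolded glycoproteins for removal, was at 109 and 152 against 153 and 179 CPM. The other members of the degradation group, Sel1l and the Derlins Derl1, Derl2 and Derl3, lay between -0.02 and 0.19 on the log2 scale. Sec61b, a small subunit of the channel through which new chains enter the ER, was at 32.9 and 45.8 against 24.7 and 33 CPM (-0.45, SE 0.62), and the groups overlapped by a small margin.

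In the PERK branch, Atf4 was at 357 and 367 against 387 and 463 CPM. Ddit3, the proapoptotic factor CHOP, was at 22.4 and 21 against 19.2 and 35 CPM. The Sox4cKO pair thus held both the lowest and the highest level of the 4 libraries. Trib3, a pseudokinase, had 15 and 4 reads in control and 19 and 9 in Sox4cKO, and Chac1, which degrades glutathione, had 29 and 14 reads against 34 and 34. The 95% exact Poisson intervals of these counts, such as 8.4 to 24.7 reads for Trib3 in control replicate 1, cover counting error only, and the median of 0.486 of this branch rests in part on them.

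**Figure D2:**
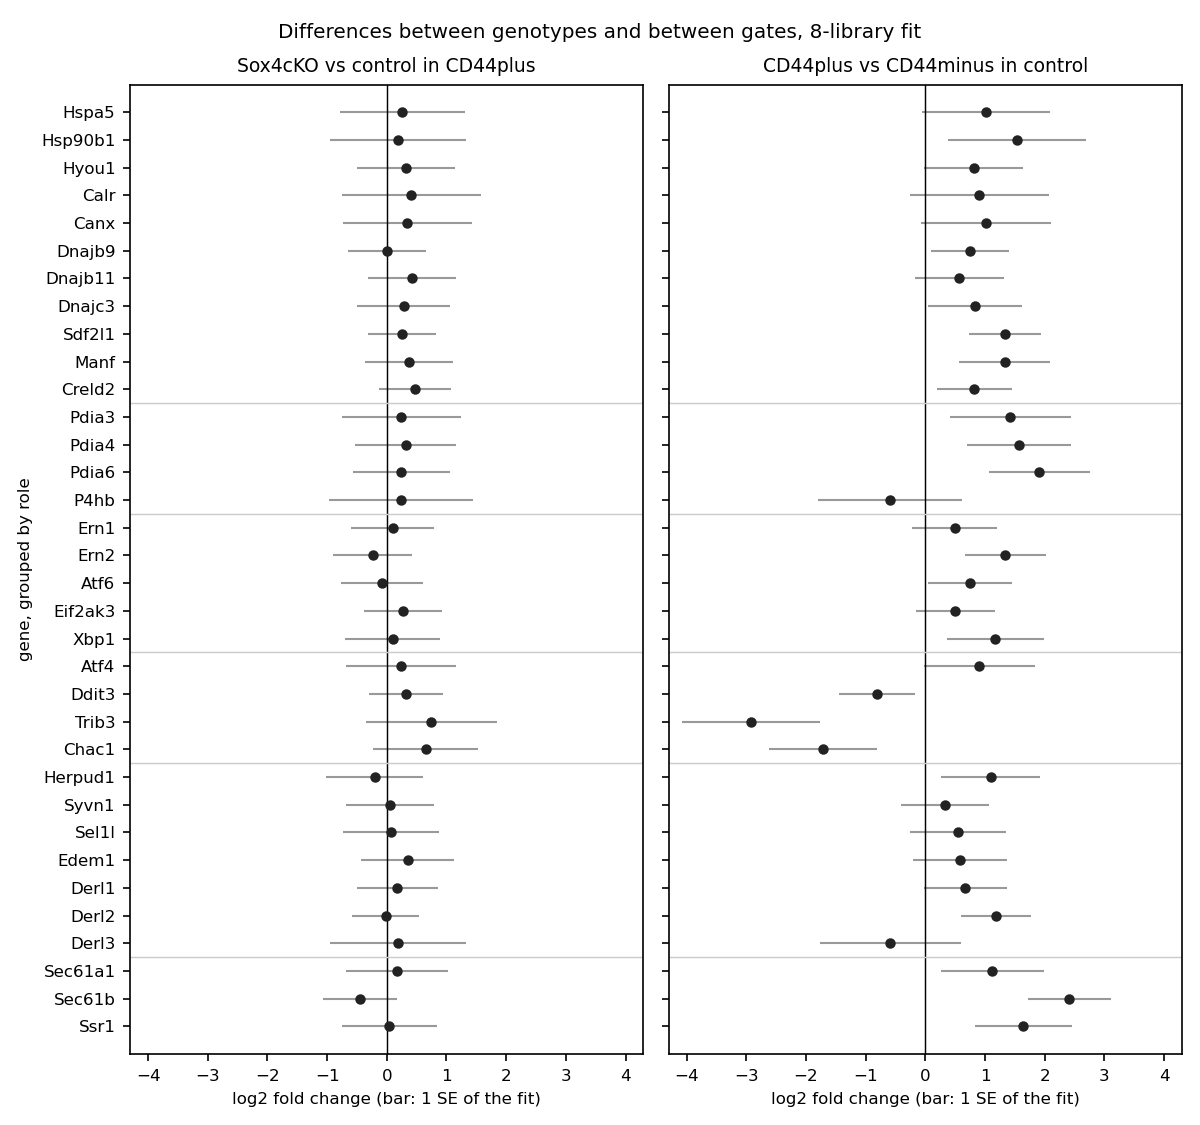
Log2 fold change of each gene in the 8-library edgeR fit (points) with its SE (bars), for Sox4cKO against control in CD44plus (left) and CD44plus against CD44minus in control (right). On the left the chaperones and isomerases lie at or just right of 0 with bars that cross it; on the right P4hb, Ddit3, Trib3, Chac1 and Derl3 lie left of 0.

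The SE in this fit ran from 0.56 (Derl2) to 1.20 (P4hb), because the spread shared by all groups includes the unlike CD44minus replicates. In the fit of the 4 CD44plus libraries alone the SEs were smaller and 3 of the 34 had an unadjusted p under 0.05: Calr (0.41, SE 0.16), Creld2 (0.47, SE 0.18) and Dnajb11 (0.42, SE 0.17). Of all 17052 genes in that 4-library fit 865 did so, and edgeR called 0% as higher and 0.0997% as lower. For the 3 named genes the edgeR adjusted p in it were 0.913, 0.92 and 0.93 (range over all 21 alternatives 0.0191 to 1, 0.309 to 1 and 0.267 to 1). Calr was called by edgeR only with the CD44plus libraries alone and without Sox4cKO replicate 1 (0.44, adjusted p = 0.0191), where 5.38% of all genes were called higher and 3.18% lower. The median of the 34 was 0.139 without TMM factors, where that of all genes was -0.0998, and 0.0845 without Sox4cKO CD44plus replicate 1, where that of all genes was -0.205. Of the 34 genes, 21 kept their sign in all 21 alternatives.

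Other cell types also differed between the CD44plus groups. Mast cell markers (8 genes, none at 0) summed to 1934 and 3201 against 3724 and 17880 CPM in Sox4cKO, and markers of T cells and intraepithelial lymphocytes (12 genes, none at 0) to 2163 and 3385 against 2329 and 5721 CPM. Plasma and B cell markers, of cells rich in ER, summed to 123 and 203 against 201 and 225 CPM (9 genes, none at 0). Enteroendocrine markers (12 genes, none at 0) were at 4738 and 5855 against 1215 and 1596 CPM. Paneth markers (10 genes, none at 0) were at 4344 and 3786 against 5406 and 4416 CPM and goblet markers (12 genes, none at 0) at 8956 and 8565 against 8823 and 8106 CPM. The part of these cells in the values above was not tested.

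Between the gates of control mice, most of the 34 genes had higher levels in the crypt-enriched cells, without passing the 8-library test. The exceptions were P4hb, Derl3 and, of the PERK branch, Ddit3, Trib3 and Chac1 but not Atf4. Of the 34 genes, 29 had a positive log2 fold change for CD44plus against CD44minus, with a median of 0.867 against -0.187 over all genes. Both CD44plus libraries lay above both CD44minus libraries for 27 genes and below for 5. Over all genes, 38.7% lay above and 41% below, so groups that do not overlap were common in this comparison. With edgeR over 8 libraries 0 of the 34 passed, against 2.01% of all genes as higher and 0.445% as lower. At an unadjusted p under 0.05 there were 4 (Sdf2l1, Pdia6, Trib3 and Sec61b) of the 34 and 4694 of all genes, a higher share. DESeq2 called 3 of the 34 (Pdia6, Trib3 and Sec61b), with 5.57% of all genes higher and 5.19% lower. Limma called 0 of the 34, with 4.63% of all genes higher and 6.02% lower.

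Of the 34 genes Sec61b had the highest log2 fold change. Sec61b (chr4:47474658-47483242, plus strand, GRCm38) was at 5.39 and 9.04 CPM in CD44minus (8 and 23 reads) against 32.9 and 45.8 CPM in CD44plus, 5.33-fold higher (log2 fold change 2.41, SE 0.69, edgeR adjusted p = 0.0732, range over 17 alternatives 2.93e-06 to 0.515). Ssr1, a subunit of the translocon-associated complex, was at 65.3 and 111 against 291 and 262 CPM (3.12-fold, adjusted p = 0.228, range 0.00473 to 0.72, edgeR). Sec61a1, the channel itself, was at 96.3 and 153 against 305 and 237 CPM. Each of the 3 translocon genes was thus higher in both CD44plus libraries, as were 38.7% of all genes, and the smallest subunit showed the largest ratio.

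The isomerases divided. Pdia6 was at 38.4 and 97.1 CPM in CD44minus and 243 and 269 CPM in CD44plus (3.76-fold), Pdia4 at 82.2 and 133 against 295 and 346 CPM (2.97-fold), and Pdia3 at 171 and 363 against 711 and 726 CPM (2.69-fold). P4hb (chr11:120560298-120573253, minus strand) went the other way in level, at 1004 and 1923 against 1000 and 944 CPM (-0.59, SE 1.20). P4hb is the classic protein disulfide isomerase and also the small subunit of the complex that loads triglyceride onto lipoproteins in enterocytes.

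All 11 chaperones were higher in both control CD44plus libraries, as were 38.7% of all genes. Hspa5 was at 366 and 618 against 1037 and 962 CPM and Hsp90b1 at 317 and 721 against 1420 and 1582 CPM, 2.03-fold and 2.89-fold. Sdf2l1, a co-factor of Hspa5 cycles, was at 8.08 and 15.3 against 28.4 and 31.6 CPM. Among the sensors, Ern2 was at 42.4 and 59.8 against 139 and 120 CPM (2.53-fold), whereas Ern1 was at 63.3 and 84.9 against 90 and 119 CPM (1.4-fold). Xbp1 was at 55.9 and 99.1 against 176 and 173 CPM. Goblet markers were at 3095 and 8393 CPM in CD44minus and 8956 and 8565 CPM in CD44plus, next to the difference in Ern2. Paneth markers, of the other heavily secreting cell, went the other way, at 10540 and 23110 against 4344 and 3786 CPM. The part of either in these values was not tested.

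In the PERK branch, Atf4 and its downstream genes parted. Atf4 was at 125 and 261 against 357 and 367 CPM. Ddit3 (chr10:127290774-127296288, plus strand) was at 29.6 and 46.4 against 22.4 and 21 CPM. Trib3 (chr2:152337422-152344032, minus strand) was at 6.74 and 9.44 against 1.34 and 0.731 CPM, and Chac1 (chr2:119351229-119354381, plus strand) at 6.74 and 10.2 against 2.59 and 2.56 CPM. These are 1.76-fold, 7.57-fold and 3.29-fold lower in CD44plus, each without overlap of the groups, as for 41% of all genes. The counting intervals of Trib3 were 3.23 to 12.4 and 6.05 to 14 CPM in CD44minus and 0.75 to 2.21 and 0.199 to 1.87 CPM in CD44plus, which do not overlap either. Per exon length of the receptor genes, background predicts 1.3 and 1.28 reads on Trib3 in control CD44minus, where 10 and 24 were counted. Per coding length of those genes the rate was higher, 2.06 and 2.05 against 0.639 and 0.631 reads per kb. Trib3 has 2.03 kb of exon, and the lower counting bound of its 10 reads was 4.8 reads.

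The degradation genes were less uniform. Herpud1 was at 71.4 and 151 CPM in CD44minus against 243 and 231 CPM in CD44plus (2.13-fold), and Derl2, a Derlin of the retrotranslocation complex, at 14.8 and 16.9 against 34.7 and 37.6 CPM (2.27-fold). Syvn1 was at 59.3 and 116 against 106 and 114 CPM and Edem1 at 64.7 and 109 against 109 and 152 CPM, so that their groups overlapped or touched. Derl3, a Derlin of secretory cells, had the lower level in CD44plus, at 5.39 and 3.14 against 2.68 and 2.92 CPM (-0.59, SE 1.18). It had 8 and 8 reads in CD44minus. Its 95% counting intervals were 2.33 to 10.6 and 1.36 to 6.2 CPM in CD44minus. They overlapped those in CD44plus, 1.81 to 3.83 and 1.67 to 4.75 CPM.

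In the fit of the 4 control libraries alone, with a smaller spread, 12 of the 34 passed edgeR's adjusted p of 0.05. The 9 higher in CD44plus were Derl2, Ern2, Manf, Pdia4, Pdia6, Sdf2l1, Sec61b, Ssr1 and Xbp1, and the 3 lower were Chac1, Ddit3 and Trib3. In that fit 24.4% of all genes passed as higher and 30.4% as lower, so the 9 of 34 sit near the background share and the 3 of 34 under it. With the animal as a block over 8 libraries, 2 passed edgeR, Sec61b (adjusted p = 0.0076) and Trib3 (adjusted p = 0.0244; range over 17 alternatives 0.00184 to 0.633), against 7.37% of all genes as higher and 10.5% as lower. Leaving a Sox4cKO CD44minus library out of the 8, neither of which is in this comparison, also brought calls: 15 of the 34 without replicate 1 (24.1% of all genes higher, 12.3% lower) and 14 without replicate 2 (22.8% and 11.8%). The median of the 34 was 0.514 without control CD44minus replicate 1, 1.26 without control CD44minus replicate 2, 0.556 with DESeq2 size factors, 0.35 without TMM factors and 0.469 after background was taken off at the coding-length rate. Without TMM factors the median of all genes moved from -0.187 to -0.772. The sign turned under another scaling for Ern1, Eif2ak3 and Syvn1, and the other 31 of the 34 kept theirs in all 5 scalings.

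The make-up of the 34-gene set needs no scaling between libraries, and it separated the gates in both genotypes. Of the reads of the 34 genes, P4hb held 25.4 and 25.5% (control) and 19.7 and 23.4% (Sox4cKO) in CD44minus, against 9.95 and 9.33% (control) and 9.93 and 9.3% (Sox4cKO) in CD44plus. Hsp90b1 held 8.01 and 9.56% and 10 and 9.98% in CD44minus, against 14.1 and 15.6% and 14.3 and 14.3% in CD44plus. Pdia3 held 4.32 to 5.01% in the CD44minus and 6.84 to 7.41% in the CD44plus libraries. The Sox4cKO CD44minus replicates, which differ so much in level, lay near each other in the shares of Hsp90b1 and Pdia3 and further apart for P4hb. For genes of few reads they lay far apart, Trib3 at 0.217 and 0.0553% and Chac1 at 0.299 and 0.0982%.

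Of the 34 genes, 7 had a higher share in all 4 CD44plus libraries (Hsp90b1, Manf, Pdia3, Pdia4, Pdia6, Sec61b and Ssr1) and 6 a higher share in all 4 CD44minus libraries (P4hb, Ddit3, Trib3, Chac1, Syvn1 and Sel1l). Measured the same way, as reads per read of the 34 genes, 9.43% of all genes tested were higher in all CD44plus libraries and 12.7% lower. With P4hb taken out of the set, 4 were higher in CD44plus (Hsp90b1, Pdia3, Pdia4 and Pdia6) and 9 in CD44minus, among them Ddit3, Trib3, Chac1, Syvn1 and Sel1l, where 6.43% of all genes were higher and 17.3% lower in CD44plus on that denominator. Hsp90b1, the 3 other isomerases, Syvn1, Sel1l and, of the PERK branch, Ddit3, Trib3 and Chac1 thus kept their side either way. Without P4hb, Manf, Sec61b and Ssr1 overlapped between the gates, and Dnajb9, Dnajb11, Ern1 and Edem1 came to be higher in CD44minus. The share of Trib3 was 0.0553 to 0.217% in CD44minus and 0.00718 to 0.023% in CD44plus. Per read of 7 epithelial marker genes, the 34 genes gave 1.21 and 1.12 reads (control) and 1.19 and 0.941 (Sox4cKO) in CD44minus, against 1.47 and 1.56 (control) and 1.63 and 1.86 (Sox4cKO) in CD44plus. The set without P4hb and this ratio were chosen after the values were seen.

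**Figure D3:**
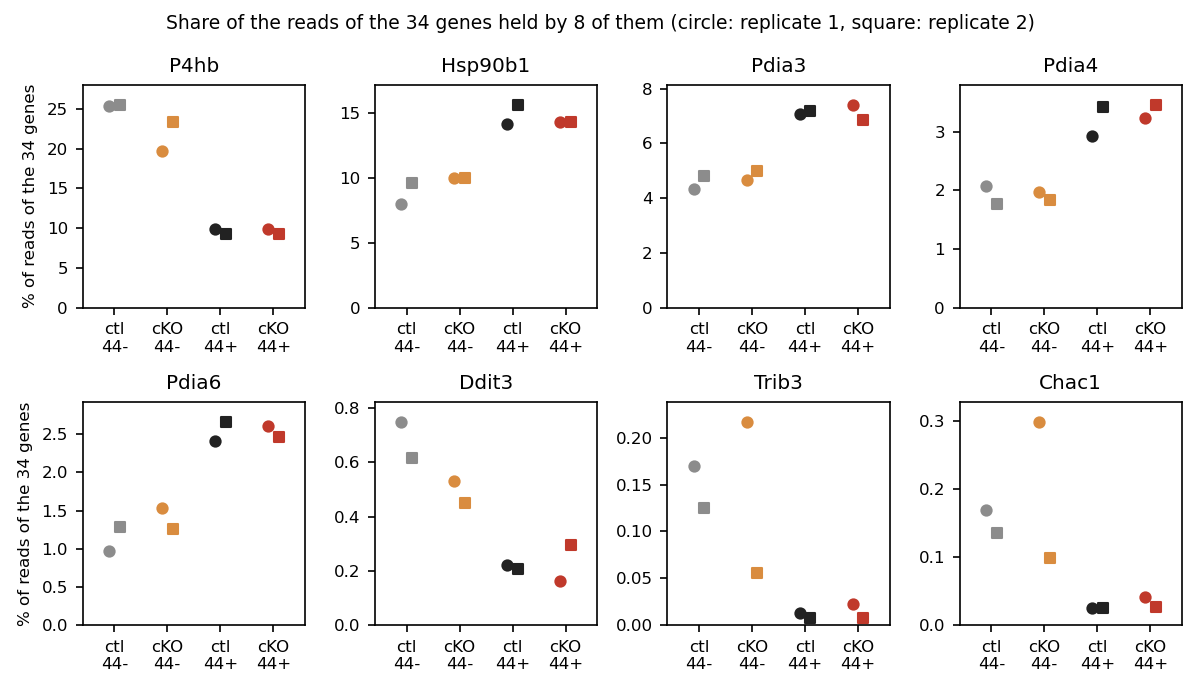
Reads of 8 of the 34 genes as a percent of the reads of all 34 (y axis, from 0) in the 4 groups (x axis; 44- is CD44minus, 44+ is CD44plus; circles replicate 1, squares replicate 2). P4hb, Ddit3, Trib3 and Chac1 are higher in all CD44minus libraries, and Hsp90b1, Pdia3, Pdia4 and Pdia6 in all CD44plus libraries.

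In the villus-enriched gate, whether the folding genes were higher or lower after loss of Sox4 turned on which Sox4cKO library was used. All 34 had a positive log2 fold change for Sox4cKO against control in CD44minus, with a median of 0.851 against 0.188 over all genes. Only 2 genes, Sdf2l1 and Chac1, lay higher in both Sox4cKO libraries and 0 lay lower, against 6.52% and 5.94% of all genes. With edgeR 0 of the 34 passed, and 0% of all genes in either direction. At an unadjusted p under 0.05 there were 0 of the 34 and 116 of all genes. DESeq2 and limma also called 0 of the 34 and 0 of all genes. Hspa5 was at 366 and 618 CPM in the controls against 348 and 1482 CPM, so that the Sox4cKO pair held both the lowest and the highest value. Xbp1 was at 55.9 and 99.1 against 61.9 and 322 CPM, P4hb at 1004 and 1923 against 718 and 4147 CPM, and Atf4 at 125 and 261 against 114 and 678 CPM. Sox4cKO replicate 2 lay above both controls for 33 of the 34 genes, and replicate 1 lay below both for 21. These counts were not made over all genes, so they do not show a trait of the 34. The TMM factors were 1.72 and 0.527 in Sox4cKO against 1.68 and 1.09 in the controls, and a lower factor raises the CPM of every gene. Enterocyte markers summed to 71670 CPM in replicate 2 and 13830 CPM in replicate 1, against 16770 and 33090 CPM in the controls.

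Without Sox4cKO CD44minus replicate 1, 26 of the 34 passed edgeR's test as higher (median 1.5), where 27.5% of all genes passed as higher and 10.2% as lower. Without replicate 2, the median was -0.523 and 0 passed, with 0% of all genes in either direction, while 1 of the 34 and 463 of all genes had an unadjusted p under 0.05. The background measure took 5.94% of the gene counts of replicate 1 and 0.246% of those of replicate 2 at a rate per exon length, and 18.2% and 0.776% at a rate per coding length. The part of depth, background and cell content in this difference was not tested. Across 5 scalings the sign turned for 14 of the 34 genes.

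The same dependence held for the gates in Sox4cKO mice. There 22 of the 34 were positive for CD44plus against CD44minus (median 0.261 against -0.481 over all genes), with 3 higher in both CD44plus libraries (Pdia4, Pdia6 and Ssr1) and 2 lower (Trib3 and Chac1). Over all genes 21.1% lay higher and 16.2% lower. With edgeR 0 of the 34 passed, against 1.66% of all genes as higher and 0.93% as lower; at an unadjusted p under 0.05 there were 0 of the 34 and 3611 of all genes. DESeq2 called 0 of the 34 and 1765 of all genes, and limma 0 and 1105. Pdia6 was at 56 and 223 CPM in CD44minus against 312 and 294 CPM in CD44plus, Trib3 at 7.92 and 9.81 against 2.75 and 0.853 CPM, and Chac1 at 10.9 and 17.4 against 4.92 and 3.22 CPM. Xbp1, Atf6, Ern1, Syvn1, Sel1l, Edem1 and Dnajb9, positive in control, had negative values here. They ran only from -0.32 (Syvn1) to -0.0059 (Dnajb9), with SEs of 0.65 (Dnajb9) to 0.80 (Sel1l). Of these genes only Syvn1 kept its sign in all 5 scalings, so no reversal is shown. Without Sox4cKO CD44minus replicate 1, the median was -0.417 and 1 gene passed as lower (Ddit3), with 8.45% of all genes higher and 8.25% lower. Without replicate 2, the median was 1.59 and 21 passed as higher, with 25% of all genes higher and 16% lower.

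**Figure D4:**
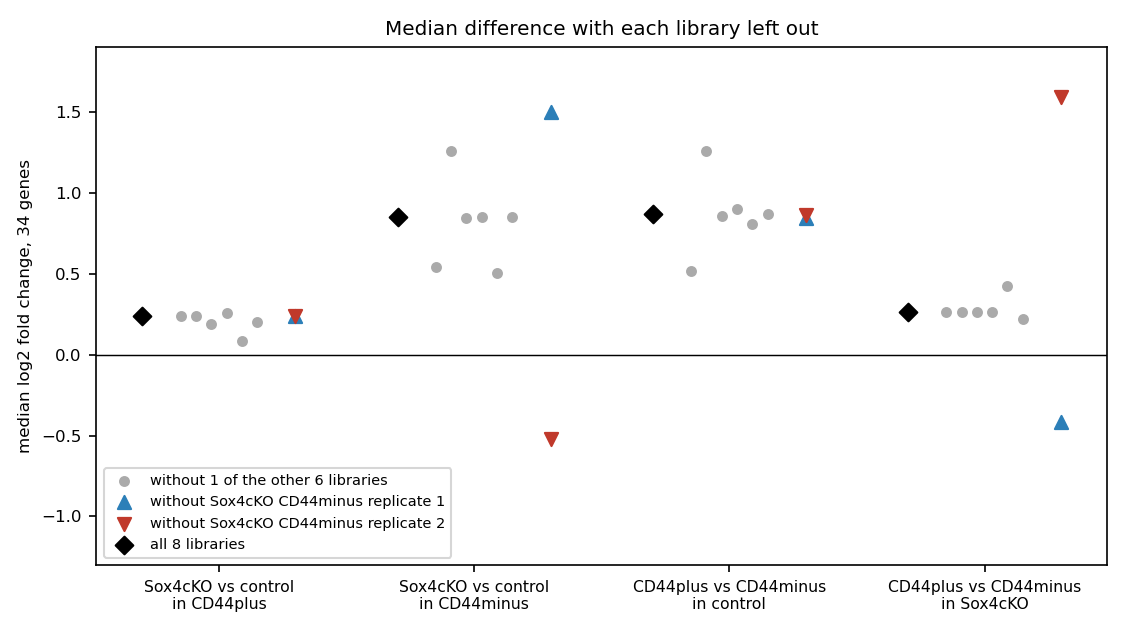
Median log2 fold change of the 34 genes (y axis) in 4 comparisons (x axis) with all 8 libraries (diamond) and with 1 library left out (grey, blue and red). In the comparisons that use the Sox4cKO CD44minus libraries the median turns sign, from 1.5 to -0.523 for genotype in CD44minus, while in the others it stays above 0.

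The difference of the genotype effect between the gates was negative for 32 of the 34 (median -0.655 against -0.368 over all genes), meaning a smaller value in CD44plus. With edgeR 0 passed, and 0% of all genes in either direction. An unadjusted p under 0.05 was found for 0 of the 34 and 50 of all genes. DESeq2 and limma called 0 of the 34 and 0 of all genes. Without Sox4cKO CD44minus replicate 1, 1 gene passed as lower (Sec61b), against 0.746% of all genes higher and 0.509% lower. Without replicate 2 the median was 0.737 and 0 passed, with 0% of all genes, while 2 of the 34 and 480 of all genes had an unadjusted p under 0.05. Without TMM factors the median was 0.0123. A difference of the Sox4 effect on the folding genes between crypt and villus cells was therefore not detectable in these libraries.

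Medians of genes with and without the promoter element were close in 4 of the 5 comparisons. The 11 genes with ERSE or ERSE-II had a median log2 fold change of 0.26 for genotype in CD44plus, against 0.238 in the 17 whose window held neither, and of 0.904 against 0.75 for the gates in control. For genotype in CD44minus they were 0.857 and 0.873, for the difference between gates -0.635 and -0.662, and for the gates in Sox4cKO 0.291 (9 of 11 positive) and -0.006 (8 of 17 positive). No test was made of these medians. Those without the element include the 4 genes of the PERK branch.

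A wider list of 136 ER genes, beside the 34, covered further regulators, integrated stress genes, folding enzymes, degradation factors and the translocation and glycosylation machinery. Of these 134 were in the tables and tested. For genotype in CD44plus 96 of the 134 were positive (median 0.114). For the gates in control 117 were positive (median 1.09), 38 of 39 in the translocation and glycosylation list (median 1.37). Of all genes, 49.9% (median -0.000524) and 47.2% (median -0.187) were positive in these comparisons. Over the 5 comparisons edgeR called 1 of the 134 genes, as lower in CD44plus in the gates of Sox4cKO mice. In that comparison 1.66% of all genes were called higher and 0.93% lower, so 1 call is near the background share. The gene was Creb3l3, an ER-bound transcription factor of lipid handling in liver and gut. It was at 204 and 342 (control) and 146 and 830 CPM (Sox4cKO) in CD44minus, and at 35.2 and 14.8 (control) and 32.4 and 29.1 CPM (Sox4cKO) in CD44plus. In Sox4cKO it was 15.9-fold lower in CD44plus (log2 fold change -3.99, SE 0.97, edgeR adjusted p = 0.0365), and its level was lower in all 4 CD44plus than in all 4 CD44minus libraries. It stayed past the threshold in 11 of 17 alternatives (adjusted p 4.82e-08 to 0.669, edgeR, DESeq2 or limma). The call was lost in the fit of the 4 Sox4cKO libraries (edgeR adjusted p = 0.082) and on leaving out control CD44minus replicate 2 (0.0606), control CD44plus replicate 1 (0.0896) or 2 (0.0873), or Sox4cKO CD44plus replicate 1 (0.118) or 2 (0.669). Without Sox4cKO CD44minus replicate 2 the log2 fold change was -2.23 and the call held (edgeR adjusted p = 0.00443).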

How the data were processed

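RNA from 8 sorted libraries was analysed as counts per gene symbol. The deposited tables hold the authors' raw read counts; per the submitters' processing notes, the tools were HTSeq 0.6.1p1, STAR 2.2.5b, Trimmomatic 0.36 and bcl2fastq 2.17.4, and the build mm10. Libraries were made with a strand-marking kit for low-input total RNA, per the labels' protocols. Whether HTSeq used strand is not given in the sources used here, so the 11 of 34 genes whose exons overlap another gene are uncertain; in 6 (Manf, Pdia3, Pdia6, Ddit3, Syvn1 and Derl2) that gene is protein coding. Lines of HTSeq that name no gene were left out. Reads assigned to no gene were 64.6 to 96.7% of uniquely placed reads, split between libraries as given above.

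The 4 groups were fitted in 8 libraries with edgeR 4.0.16 in R 4.3.3 (quasi-likelihood test, filterByExpr with a minimum count of 10, TMM), with Benjamini-Hochberg adjustment over the 20427 genes tested and a threshold of 0.05. Alternatives used DESeq2 1.42.0, limma 3.58.1 (voom), other scalings, no filter, background subtraction, fewer libraries and blocks. The edgeR fit was run on simulated data for genotype in CD44plus and for the gates in control. Those data had the same spread in every library, smaller than in the 8 real libraries (biological coefficient of variation 0.616). They therefore do not show how the fit performs at the real spread. The 34 genes, the wider list and the rules were chosen with earlier results of these data known. Each of the 34 was named by role, and wider genes only if they passed. Exon lengths and overlaps come from GENCODE vM21.

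Animal numbers in the deposited table names tie the 2 gates of an animal together. Deviations of same-animal libraries correlated across genes at 0.103 (control) and 0.526 (Sox4cKO). Between genotypes, libraries share only a replicate number, and their deviations correlated at 0.275 (CD44plus) and 0.6 (CD44minus). With 2 libraries against 2, an exact permutation test cannot give a two-sided p under 0.333, so single values such as shares were not tested. At the lowest depth, a count of 0 would allow 3 counts, or 3.38 CPM of gene counts; reads carry no molecular identifiers, so intervals cover counting error only.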

Additional observations from a re-analysis of the deposited data

How the results depend on the processing

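Call counts moved with the spread and scaling used, and the direction of the CD44minus genotype result with 1 library. For the gates in control, all genes called (502) became 2199 with DESeq2, 2176 with limma-voom, 994 without the filter, 9877 with the 4 libraries compared, 1420 and 2037 with background subtracted at the exon and coding rate, 3659 with the animal as a replicate block, 2091 without TMM factors and 0 to 7362 leaving out 1 library. Of the 34 genes, the same settings called 3, 0, 1, 12, 1, 3, 2, 5 and 0 to 15. For the gates in Sox4cKO (529) the counts were 1765, 1105, 884, 0, 1281, 1904, 1712, 2039 and 11 to 8440; of the 34, 4 were called without TMM factors and 0 to 21 leaving out 1 library, when the median ran from -0.417 to 1.59, Dnajb9 from -0.677 to 1.33, Edem1 from -0.766 to 1.58 and Xbp1 from -0.784 to 1.6. For genotype in CD44plus (0) all genes called were 17 with 4 libraries, 1 with the replicate number as a block and 0 to 24 leaving out 1 library; with the CD44plus libraries alone, 58 without control replicate 1, 216 without control replicate 2, 1554 without Sox4cKO replicate 1 (with 1 of the 34, Calr) and 200 without Sox4cKO replicate 2, where the lone library is assumed to vary like the others. For genotype in CD44minus, leaving out 1 library gave 0 to 7613 of all genes, 0 to 26 of the 34 and a median of -0.523 to 1.5. For the difference between gates it gave 0 to 254, 0 to 1 and -1.3 to 0.737, and without TMM factors the median was 0.0123. A replicate-number block changed no call of the 34 between genotypes (0 called with and without). Fits without TMM factors, at the coding rate and of 3 CD44plus libraries were added after the data were seen. The causes were not tested. Low depth limits Trib3, Chac1, Derl3 and Sec61b most.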
